A study of Homo sapiens with 6 samples.

Results

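The FOS, JUN and ATF members of activator protein 1 (AP-1) were followed at the mRNA level in HEK293 cells treated with GSK-A1. The members were the genes whose symbol in the deposited count table matched FOS, FOSB, FOSL1, FOSL2, JUN, JUNB, JUND, ATF2 or ATF3. All 9 were found, among 63140 genes in the table, and all 9 had enough reads to be tested. HEK293 is an established human line derived from embryonic kidney. Confluent cultures, kept in DMEM with fetal bovine serum and antibiotics, received GSK-A1 at 100 nM, and the control cultures received dimethyl sulfoxide (DMSO), each for 24 h. GSK-A1 is a compound that inhibits phosphatidylinositol 4-kinase III alpha, the lipid kinase encoded by PI4KA. Each group had 3 libraries of total RNA, labelled as biological replicates 1 to 3.

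AP-1 is a set of dimers of basic leucine zipper proteins. JUN proteins can pair with themselves or with FOS or ATF proteins, whereas FOS proteins need a partner such as JUN to bind DNA. FOS, FOSB, JUN, JUNB and ATF3 are known as immediate-early or stress-induced genes, whose transcripts are made quickly and are short-lived. FOSL1 and FOSL2 encode the FRA proteins, JUND is a more constantly expressed JUN gene, and ATF2 is known mainly for control of its protein by stress-activated kinases. FOS:JUN dimers prefer the element TGACTCA, and dimers with ATF or CREB proteins prefer TGACGTCA.

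Promoter sequences were taken from RefSeq (GRCh38.p14), which gave a window of the 250 bases before the start for 7 of the 9 members, with 2 windows for ATF3. They are shown because these genes are known to be controlled through elements of the CREB and ATF type. Whether such elements have a part in the members' changes was not tested. FOSL1 and ATF2 had no window. Each line below holds 30 bases, 5' to 3' on the gene's strand. Capitals mark TGACG, or CGTCA on the other strand, or in JUN and ATF3 the variant TGACATCA.
FOS: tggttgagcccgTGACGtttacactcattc
FOSB: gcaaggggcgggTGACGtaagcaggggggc
FOSL2: ggagtctggggtTGACGtgagtgaatccac
JUN: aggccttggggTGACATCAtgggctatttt
JUNB: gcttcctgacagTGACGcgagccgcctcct
JUND: gcaaatgagcgaCGTCAcccgcacccaatg
ATF3: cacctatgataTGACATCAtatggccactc
The stretches lie at chr14:75278752-75278781 on the plus strand for FOS, chr19:45467924-45467953 on the plus strand for FOSB and chr2:28392780-28392809 on the plus strand for FOSL2. That of JUN lies at chr1:58784096-58784125 on the minus strand, that of JUNB at chr19:12791337-12791366 on the plus strand, that of JUND at chr19:18281691-18281720 on the minus strand and that of ATF3 at chr1:212565273-212565302 on the plus strand. The RefSeq start is not always the start of the gene in GENCODE 29, from which the gene positions given with each member's values were taken. All 30 bases shown for JUN lie in a GENCODE exon of JUN, as does its whole window. The FOSL2 window lies inside the GENCODE gene, and 8 of its 30 bases shown lie in an exon, as do 8 of the 30 for FOS. The other stretches shown lie outside exons.

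The FOS and FOSB elements sit at nearly the same distance from the start. In FOS, TGACG spans bases 64 to 60 before the start and TATAAA spans bases 33 to 28. In FOSB, TGACG spans bases 60 to 56 and TATAAA spans bases 30 to 25. TGACG or CGTCA was found in the windows of 6 members (FOS, FOSB, FOSL2, JUN, JUNB and JUND), and in 21.2% of the 35116 promoter windows of the same length. TGACATCA or TGATGTCA was found in JUN (bases 67 to 60) and ATF3 (bases 123 to 116), and in 2.37% of all windows. Only JUND among the 8 windows held the complete TGACGTCA, which includes the shorter TGACG and CGTCA and occurs in 1.65% of all windows. TGACTCA or TGAGTCA, present in 4.20% of all windows, was in 0 of the 8, as was the CArG box bound by serum response factor, present in 1.16%. Sequence further upstream than these 250 bases was not searched, so an element there would be missed. TATAAA or TTTATA was in the windows of FOS, FOSB, JUNB and ATF3, and in 10.7% of all windows. In JUNB it spans bases 31 to 26. In ATF3 it lies far from the start, at bases 230 to 225, and not in the window of the stretch shown. That other ATF3 window, chr1:212614768-212615017 on the plus strand, lies inside the GENCODE gene and outside its exons. All motifs were searched on both strands, and a match is a match of letters only.

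The upstream stretches of FOS, the member with the largest rise, and of JUND, the member with the most negative difference in its share of the family, are shown for comparison, without the bases that lie in annotated exons. Capitals mark TGACG in FOS, and TGACGTCA and CGTCA in JUND.
FOS upstream: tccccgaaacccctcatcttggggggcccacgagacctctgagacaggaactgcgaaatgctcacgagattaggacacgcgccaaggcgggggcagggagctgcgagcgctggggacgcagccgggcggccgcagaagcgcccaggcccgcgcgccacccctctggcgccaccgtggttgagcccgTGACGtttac
JUND upstream: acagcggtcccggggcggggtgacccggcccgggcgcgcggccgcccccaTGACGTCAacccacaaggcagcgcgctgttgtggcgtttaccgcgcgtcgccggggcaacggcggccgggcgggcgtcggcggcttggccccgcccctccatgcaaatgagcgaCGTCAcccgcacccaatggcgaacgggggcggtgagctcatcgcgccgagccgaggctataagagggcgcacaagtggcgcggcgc
The FOS stretch is chr14:75278578-75278773 on the plus strand, and the JUND stretch is chr19:18281623-18281872 on the minus strand. The complete TGACGTCA of JUND spans bases 200 to 193 before the start.

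Of the 9 members, 8 were higher after GSK-A1 and 0 were lower, by edgeR's quasi-likelihood test at an adjusted p under 0.05. ATF2 was the member not called. Over all 16754 genes tested, 12.0% were called higher and 10.9% lower. In the same 8 members each GSK-A1 library lay above each DMSO library, as it did in 20.2% of all genes tested. The members were chosen with earlier results of these data known, so the shares over all genes are given for description only. The median log2 fold change was 0.80 over the 9 members and -0.011 over all genes tested. The 4 FOS genes had a median of 0.86 and the 3 JUN genes a median of 0.38. In a culture, more cells expressing a gene and more RNA per cell cannot be told apart.

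**Figure D1:**
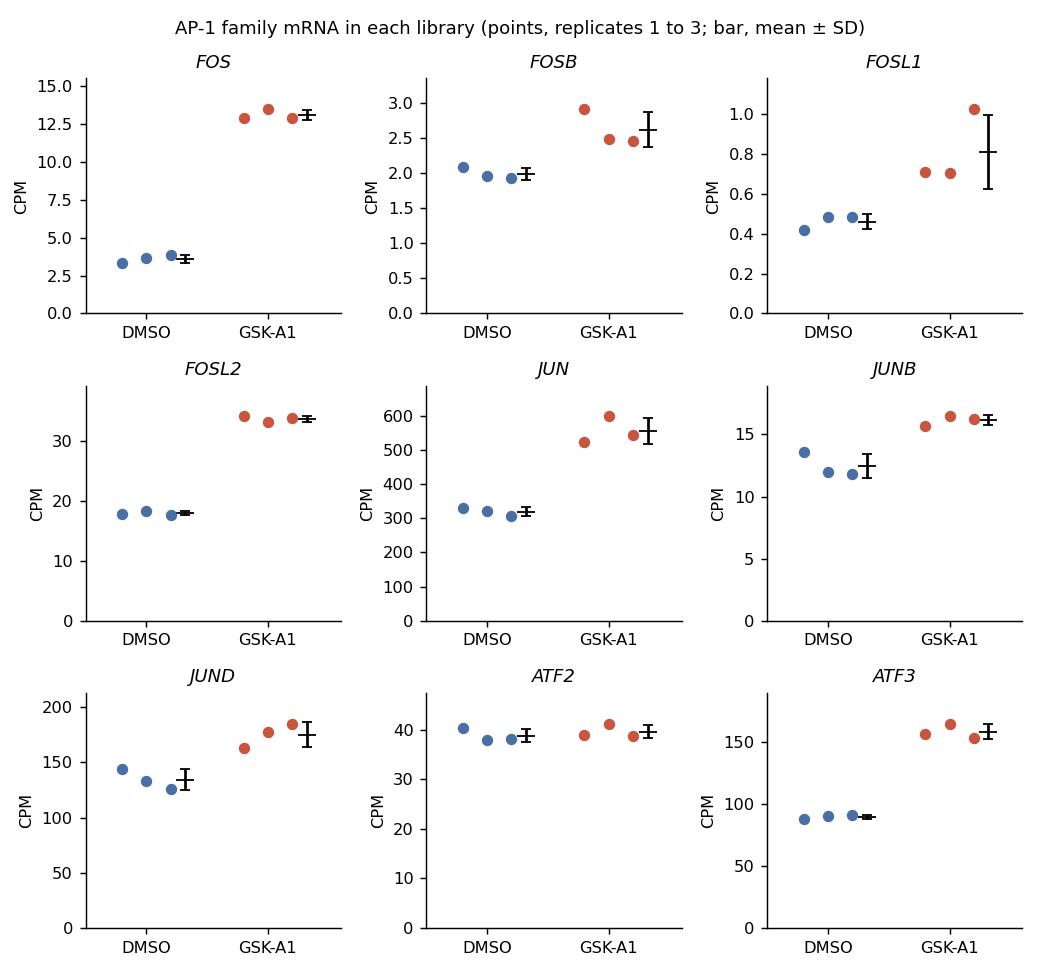
Expression of each member in CPM (linear axis from 0) in each DMSO library (blue) and GSK-A1 library (red), with the mean and SD of the 3 libraries at the right of each group. The groups are separate for every member other than ATF2.

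Expression is given in CPM, the gene's count scaled to the library's adjusted total so that libraries of different depth can be compared. FOS (ENSG00000170345; chr14:75278774-75282230, plus strand) encodes c-FOS, the founding FOS subunit. FOS measured 3.34, 3.65 and 3.86 CPM in the DMSO libraries and 12.9, 13.5 and 12.9 CPM in the GSK-A1 libraries. The lowest GSK-A1 library thus stood far above the highest DMSO library, and the spread within each group was small. The mean went from 3.62 ± 0.264 to 13.1 ± 0.338 CPM (SD, n = 3 each), a ratio of 3.63. FOS rose by a log2 fold change of 1.87 ± 0.082 (SE), with an edgeR adjusted p of 1.65e-10. By size this was rank 13 among the 2007 genes called higher. Behind these values were 160, 166 and 128 reads in the DMSO libraries and 603, 461 and 465 in the GSK-A1 libraries. Per length, taken as the union of exons, FOS was lowly expressed in DMSO, above 27.6% of the genes tested, and above 50.6% after GSK-A1.

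FOSL2 (ENSG00000075426; chr2:28392448-28417312, plus strand) encodes FRA-2 and was the most abundant FOS transcript in CPM in both groups. It measured 17.9, 18.4 and 17.7 CPM in DMSO and 34.2, 33.2 and 33.8 CPM in GSK-A1. The libraries of each group lay close together, and the groups lay well apart. The mean went from 18.0 ± 0.328 to 33.8 ± 0.470 CPM, a ratio of 1.88. The log2 fold change was 0.91 ± 0.05, with an edgeR adjusted p of 2.99e-09.

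FOSL1 (ENSG00000175592; chr11:65892049-65900573, minus strand), which encodes FRA-1, and FOSB (ENSG00000125740; chr19:45467995-45475179, plus strand) were the least expressed members. FOSL1 was counted 20, 22 and 16 times in DMSO and 33, 24 and 37 times in GSK-A1, equal to 0.417, 0.484 and 0.483 CPM against 0.708, 0.703 and 1.03 CPM. The third GSK-A1 library was the high one, and the other two lay nearer to DMSO without overlapping it. FOSL1 rose by a log2 fold change of 0.81 ± 0.24, with a 95% interval of 0.30 to 1.33 and an edgeR adjusted p of 0.0240. FOSB measured 2.09, 1.96 and 1.93 CPM in DMSO and 2.92, 2.49 and 2.47 CPM in GSK-A1. Here the first GSK-A1 library was the high one. FOSB rose by a log2 fold change of 0.41 ± 0.13, with a 95% interval of 0.13 to 0.68 and an edgeR adjusted p of 0.0315.

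The calls of FOSB and FOSL1 did not hold when certain libraries were left out. The FOSB call was lost without DMSO 1 (edgeR adjusted p 0.0672), DMSO 2 (0.103), DMSO 3 (0.0943) or GSK-A1 1 (0.153). The FOSL1 call was lost without DMSO 1 (edgeR adjusted p 0.103), DMSO 2 (0.0682), DMSO 3 (0.0606) or GSK-A1 3 (0.102, at a log2 fold change of 0.62). In addition, 3.64% of the 50-base stretches of FOSL1 transcripts also occur in its pseudogene FOSL1P1, so a small part of its reads may be uncertain. The calls of the other 6 risen members held without each library.

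JUN (ENSG00000177606; chr1:58780788-58784327, minus strand), which encodes c-JUN, was the most abundant member. JUN measured 331, 322 and 306 CPM in DMSO and 525, 598 and 543 CPM in GSK-A1. All 3 GSK-A1 libraries were high, the second most of all. The mean went from 319 ± 12.7 to 555 ± 38.4 CPM, a ratio of 1.74. JUN rose by a log2 fold change of 0.80 ± 0.046, with an edgeR adjusted p of 2.91e-08. Per length it already stood above 98.0% of the genes tested in DMSO, and above 98.9% in GSK-A1.

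JUNB and JUND rose by less. JUND (ENSG00000130522; chr19:18279760-18281622, minus strand) measured 144, 133 and 126 CPM in DMSO and 163, 177 and 185 CPM in GSK-A1. The groups did not overlap, although DMSO 1 and GSK-A1 1 lay near each other. JUND rose by a log2 fold change of 0.38 ± 0.055, with an edgeR adjusted p of 0.000325. JUNB (ENSG00000171223; chr19:12791496-12793315, plus strand) measured 13.6, 12.0 and 11.8 CPM in DMSO and 15.7, 16.5 and 16.3 CPM in GSK-A1. The first DMSO library was the highest of its group and still below each GSK-A1 library. JUNB rose by a log2 fold change of 0.37 ± 0.068, with an edgeR adjusted p of 0.00114. The gene HOOK2 on the opposite strand covers 14.2% of the exonic length of JUNB, and the strand setting of the counting was not given in the sources used here. HOOK2 measured 23.3 ± 0.41 CPM in DMSO and 21.5 ± 2.4 CPM in GSK-A1, with an edgeR adjusted p of 0.246.

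ATF3 (ENSG00000162772; chr1:212565334-212620777, plus strand) encodes a stress-induced factor that can act as a repressor. ATF3 measured 87.9, 90.5 and 91.0 CPM in DMSO and 156, 165 and 154 CPM in GSK-A1. Neither group had a library that stood apart, and the gap between groups was much wider than the spread within them. The mean went from 89.8 ± 1.66 to 158 ± 6.05 CPM, a ratio of 1.76. ATF3 rose by a log2 fold change of 0.82 ± 0.04, with an edgeR adjusted p of 4.66e-10. The log2 fold changes of JUN, FOSL1 and ATF3 thus lay within 0.80 to 0.82, at mRNA levels that differed widely.

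ATF2 (ENSG00000115966; chr2:175072250-175168382, minus strand) gave no call. It measured 40.4, 37.9 and 38.1 CPM in DMSO and 39.0, 41.3 and 38.8 CPM in GSK-A1, and the groups overlapped. The log2 fold change was 0.028 ± 0.048, with a 95% interval of -0.073 to 0.13 and an edgeR adjusted p of 0.714. The upper bound of that interval lies below the log2 fold change of each other member, although the 95% interval of FOSB also begins at 0.13.

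**Figure D2:**
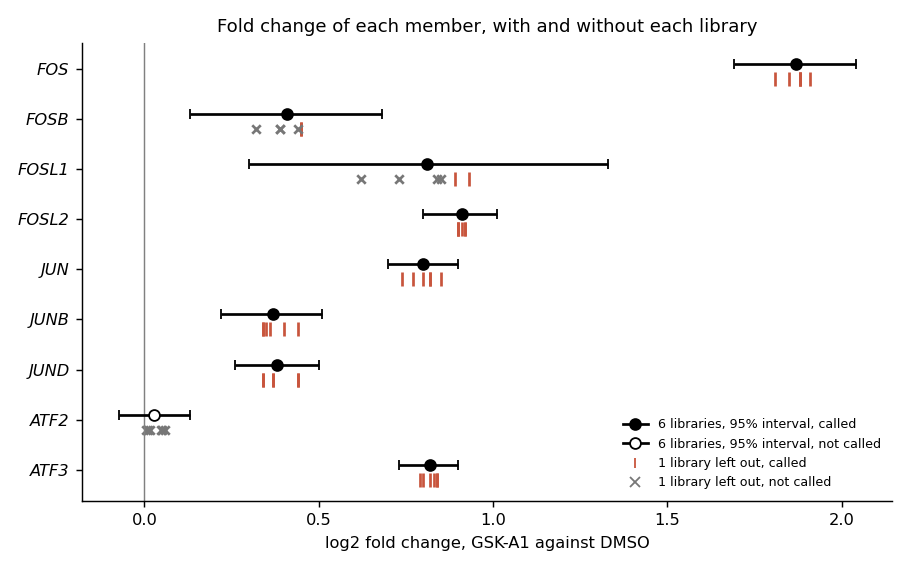
Log2 fold change (GSK-A1 against DMSO) of each member with its 95% interval from all 6 libraries (circles, filled where called), and the value when 1 library is left out (red ticks where called, grey crosses where not). FOS stands to the right at 1.87, a cluster lies near 0.80 to 0.91, and FOSB and FOSL1 carry crosses, where leaving out a library ended the call.

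To compare members with each other, levels were divided by exonic length and are given as CPM per kilobase (CPM per kb). The length used was the union of exons, and the order of members at similar levels can change with another length. In DMSO, JUN was at 90.2 ± 3.59, JUND at 72.1 ± 5.06 and ATF3 at 22.2 ± 0.411 CPM per kb. That order held in each of the 6 libraries, so these 3 neighbours differed beyond their spread. JUNB followed at 6.84 ± 0.541 and ATF2 at 6.75 ± 0.241 CPM per kb, and their order changed between DMSO libraries, ATF2 being above JUNB in DMSO 2 and DMSO 3. FOSL2 was at 2.51 ± 0.0458 and FOS at 1.12 ± 0.0817 CPM per kb. FOSB and FOSL1 stood last, and they exchanged places in GSK-A1 3.

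After GSK-A1, JUN was at 157 ± 10.9, JUND at 94.0 ± 6.04, ATF3 at 39.2 ± 1.50 and JUNB at 8.86 ± 0.221 CPM per kb. FOSL2 reached 4.72 ± 0.0657 and FOS 4.05 ± 0.105 CPM per kb, while ATF2 was at 6.90 ± 0.243. The FOS genes thus stayed at the low end of the family in both groups. The sum over the 9 members was 211.2, 202.1 and 193.7 CPM per kb in DMSO and 299.4, 331.0 and 316.2 in GSK-A1. Its mean went from 202 ± 8.79 to 316 ± 15.8 CPM per kb, a ratio of 1.56, with no overlap between groups and an exact two-sided permutation p of 0.1, the smallest that 3 libraries against 3 allow. Of that difference JUN made up 58.9%, JUND 19.4% and ATF3 15.0%. FOS, which had the largest fold change, made up 2.59%. The order of JUND and ATF3 in these parts depends on the length used. The ATF3 length was 4040 bases by the union of exons and 2103 by the longest transcript, while that of JUND was 1863 by both. With the longest transcripts the part of ATF3 would lie above that of JUND.

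**Figure D3:**
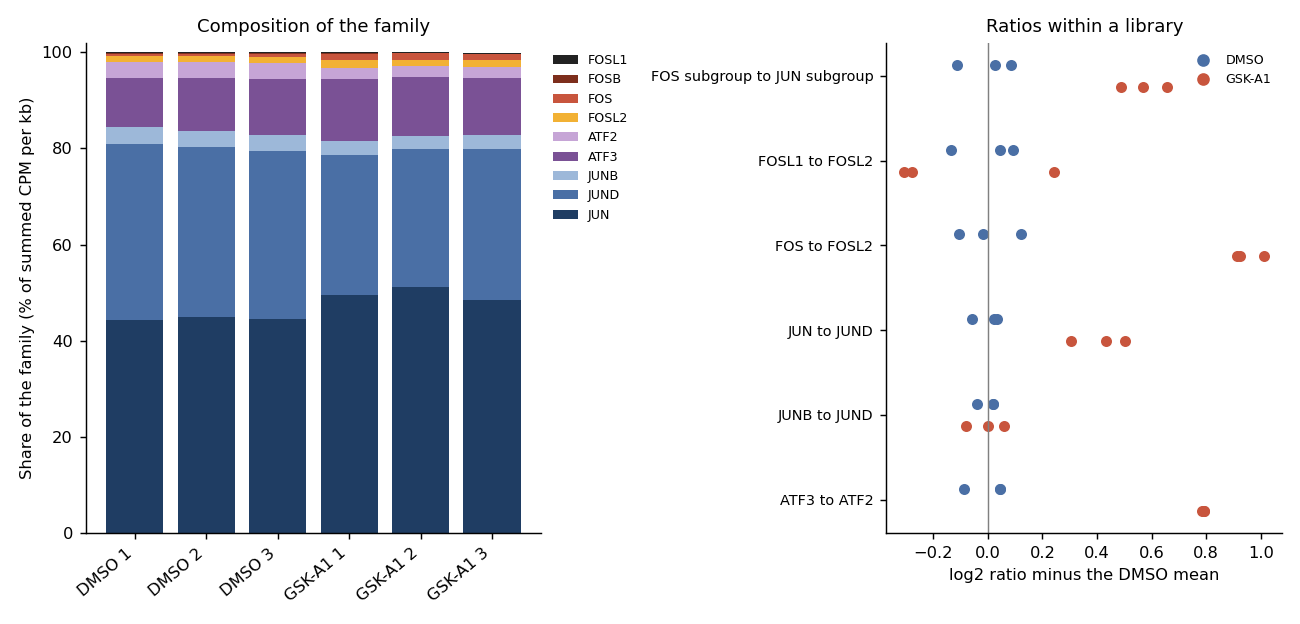
Left, share of each member in the family's summed CPM per kb in each library. Right, log2 ratios between members within each library, as the distance from the DMSO mean, for DMSO (blue) and GSK-A1 (red). JUN takes a larger share and JUND a smaller one in each GSK-A1 library, and the JUNB to JUND ratio overlaps between groups.

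In the composition of the family, the widest differences in percentage points between the groups were those of JUN and JUND. JUN made up 44.2%, 45.0% and 44.6% of the summed CPM per kb in DMSO, and 49.5%, 51.1% and 48.5% in GSK-A1. JUND made up 36.7%, 35.3% and 34.8% in DMSO, and 29.2%, 28.8% and 31.4% in GSK-A1. The mean shares thus differed by 5.11 percentage points for JUN and by -5.79 points for JUND, although the mRNA of both had risen. ATF3 made up 10.3%, 11.1% and 11.6% in DMSO and 12.9%, 12.3% and 12.0% in GSK-A1, which is close together but without overlap. ATF2 went from 3.34% ± 0.080 to 2.19% ± 0.068. FOS went from 0.554% ± 0.064 to 1.28% ± 0.043. The 4 FOS genes together made up 1.96%, 2.13% and 2.21% in DMSO and 3.23%, 2.91% and 3.07% in GSK-A1.

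The groups did not overlap in the shares of JUN, JUND, JUNB, ATF2, ATF3, FOS, FOSL2 and the FOS genes together. Each of these gave an exact two-sided permutation p of 0.1, the smallest this design can give. Over the 12 shares tested, the Benjamini-Hochberg adjusted values ran from 0.150 to 0.700, so that none could pass 0.05. The 3 JUN genes together made up 83.6% ± 0.84 in DMSO and 82.3% ± 0.64 in GSK-A1 (exact p = 0.200), and the 2 ATF genes 14.3% ± 0.71 and 14.6% ± 0.53 (exact p = 0.700). In both groups the JUN genes thus held most of the family's summed level.

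Ratios between members within a library do not depend on the library's scaling, but they do depend on the lengths used. FOS was at 0.443 of the FOSL2 level per length in DMSO and at 0.859 in GSK-A1 (geometric means), a log2 difference of 0.95. The FOS length was 3238 bases by the union of exons and 2158 by the longest transcript, against 7157 and 6708 for FOSL2. With the longest transcripts FOS would lie above FOSL2 in GSK-A1, while the log2 difference stayed at 0.95. JUN was at 1.25 times the JUND level in DMSO and 1.67 times in GSK-A1, a log2 difference of 0.41. ATF3 was at 3.29 times the ATF2 level in DMSO and 5.68 times in GSK-A1, a log2 difference of 0.79. These 3 ratios did not overlap between groups, nor did the ratio of FOS genes to JUN genes, which was 0.0251 in DMSO and 0.0373 in GSK-A1. Each of the 4 had an exact permutation p of 0.1 and an adjusted value of 0.150 over the 6 ratios computed.

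The other 2 ratios overlapped between the groups. JUNB was at 0.0948 of the JUND level in DMSO and 0.0944 in GSK-A1 (exact permutation p = 0.800). The log2 difference of -0.0068 was within the SDs between libraries, 0.036 in DMSO and 0.067 in GSK-A1. FOSL1 was at 0.0970 of the FOSL2 level in DMSO and 0.0899 in GSK-A1 (exact permutation p = 0.700), with 1 GSK-A1 library above all DMSO libraries and the others below them. The log2 difference of -0.11 was -0.013 without GSK-A1 1, -0.028 without GSK-A1 2, -0.29 without GSK-A1 3, -0.18 without DMSO 1 and -0.064 without DMSO 3.

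Other genes of the pathway were read in 3 lists, chosen from general knowledge with earlier results of these data known. The first held 26 relatives and dimer partners of AP-1 proteins, of which 22 were tested. Of these, 10 were higher, 1 was lower and 11 were not called by edgeR. That is 45.5% higher and 4.55% lower, against 12.0% and 10.9% of all genes tested. Their median log2 fold change was 0.14, and BATF, NFE2, CEBPD and CEBPE had too few reads to be tested. MAFF, a small MAF protein without an activation domain, went from 1.32 ± 0.21 to 6.46 ± 0.56 CPM, which is 2.30 ± 0.13 on the log2 scale (adjusted p 3.46e-09 by edgeR). The other small MAF genes rose by less, MAFK by 0.57 ± 0.047 on the log2 scale (adjusted p 6.31e-07 by edgeR) and MAFG by 0.42 ± 0.058 (adjusted p 0.000211 by edgeR). CREB5, which encodes a close relative of ATF2, went from 60.5 ± 2.3 to 83.4 ± 0.70 CPM (0.46 ± 0.041 on the log2 scale, adjusted p 1.42e-06 by edgeR). CEBPG, a partner of several basic leucine zipper proteins, went from 151 ± 0.40 to 205 ± 8.5 CPM (0.44 ± 0.038 on the log2 scale, adjusted p 8.04e-07 by edgeR). The lower gene was MAF, at -0.21 ± 0.05 on the log2 scale (adjusted p 0.00670 by edgeR). JDP2, a JUN-binding repressor, was not called, at -0.17 ± 0.077 (edgeR adjusted p 0.113).

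**Figure D4:**
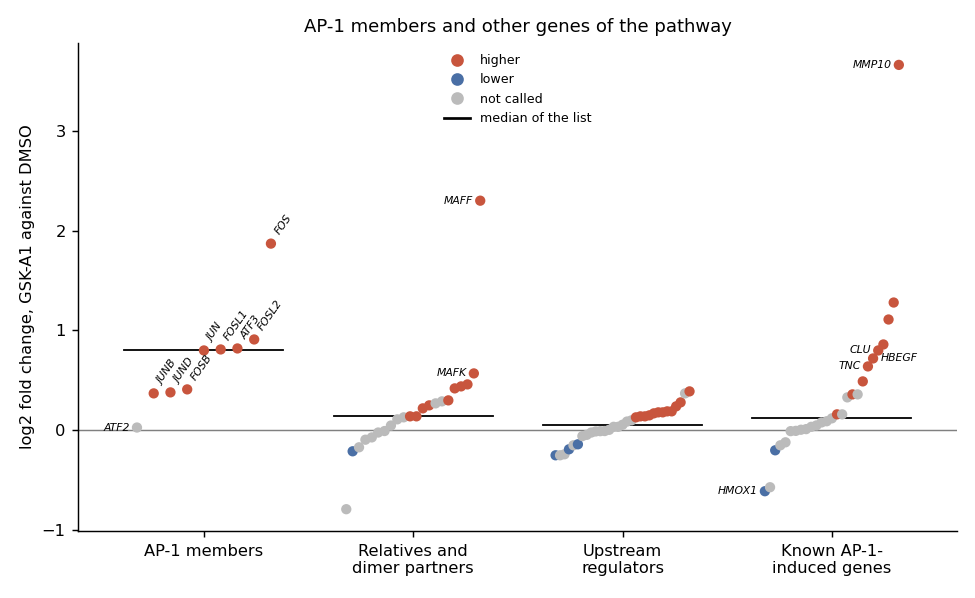
Log2 fold change (GSK-A1 against DMSO) of the 9 members and of the tested genes of 3 lists, ordered by value, with a bar at each list's median. The members' median of 0.80 stands above the list medians of 0.14, 0.056 and 0.12, while MAFF and MMP10 exceed FOS.

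The second list held 31 upstream regulators of FOS and JUN genes and proteins, all tested, of which 12 were higher, 3 were lower and 16 were not called by edgeR. That is 38.7% higher and 9.68% lower, against 12.0% and 10.9% of all genes tested, so the share of lower genes was near that of all genes. The median log2 fold change was 0.056. ELK4, a ternary complex factor that acts with serum response factor, rose by 0.39 ± 0.043 on the log2 scale (adjusted p 1.45e-05 by edgeR). RPS6KA3, which encodes the kinase RSK2, had 0.24 ± 0.042 (edgeR adjusted p 0.000914), and MEF2C, a transcription factor, had 0.28 ± 0.057 (edgeR adjusted p 0.00247). MEF2A, a relative of MEF2C, and CREM, a relative of CREB, each had 0.19, with SEs of 0.042 and 0.045 (edgeR adjusted p 0.00421 and 0.00586). ELK1, another ternary complex factor, was lower at -0.19 ± 0.04 on the log2 scale (adjusted p 0.00300 by edgeR). RPS6KA4, the kinase MSK2, and MAPK3, the kinase ERK1, were lower at -0.25 ± 0.06 and -0.14 ± 0.046 (edgeR adjusted p 0.00765 and 0.0349). SRF itself was not called, at -0.022 ± 0.044 with a 95% interval of -0.12 to 0.071 (edgeR adjusted p 0.761). The count of 15 called regulators dropped to 8 without DMSO 1, 8 without DMSO 2, 7 without DMSO 3 and 8 without GSK-A1 1, and was 18 without GSK-A1 2. Calls over all genes moved likewise in these fits, from 3835 to 2163, 2213, 2206 and 2674, and to 4890 without GSK-A1 2.

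The third list held 34 genes known to be induced through AP-1 in other cells, of which 27 were tested. Of these, 10 were higher, 2 were lower and 15 were not called by edgeR, so that 37.0% were higher and 7.41% lower, against 12.0% and 10.9% of all genes tested. The median log2 fold change was 0.12. The count of 12 called genes was 8 with DESeq2, 9 without GSK-A1 1 and 14 without GSK-A1 2. MMP10, the protease stromelysin-2, was counted 7, 1 and 3 times in DMSO and 48, 53 and 31 times in GSK-A1. The groups were far apart, but the size of the fold rests on the few DMSO reads (fitted log2 fold change 3.66 ± 0.41, edgeR adjusted p 1.69e-05). CLU, the extracellular chaperone clusterin, went from 266 ± 7.6 to 463 ± 16 CPM, which is 0.80 ± 0.037 on the log2 scale (adjusted p 2.76e-10 by edgeR). HBEGF, a ligand of the EGF receptor, went from 9.70 ± 0.14 to 16.0 ± 1.1 CPM (0.72 ± 0.068 on the log2 scale, adjusted p 2.40e-06 by edgeR). TNC, the matrix protein tenascin C, rose by 0.64 ± 0.042 on the log2 scale (adjusted p 3.15e-08 by edgeR), and EZR, the membrane linker ezrin, 0.36 ± 0.036 (edgeR adjusted p 5.09e-06).

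The lower genes of the third list, a smaller share than among all genes, were HMOX1 and GSTP1. HMOX1, haem oxygenase, fell from 20.1 ± 3.1 to 13.2 ± 0.47 CPM (-0.61 ± 0.10 on the log2 scale, adjusted p 0.000968 by edgeR), and GSTP1, a glutathione transferase, had -0.20 ± 0.034 (edgeR adjusted p 0.000707). CCND1, which encodes cyclin D1, was not called, at 0.0059 ± 0.035 with a 95% interval of -0.069 to 0.081 (edgeR adjusted p 0.927).

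The genes whose profile over the 6 libraries lay nearest to a member were found among 12808 genes by the root mean square difference in log2 CPM from the DMSO mean. Nearest to FOS were RHOB and EGR3, each at a difference of 0.11, then ETV4 at 0.14 and TNFRSF12A at 0.15. Of these, RHOB, a small GTPase, went from 90.9 ± 3.6 to 348 ± 17 CPM, and EGR3, a zinc finger factor, from 1.93 ± 0.28 to 6.39 ± 0.32 CPM. Nearest to JUN were TFPI at 0.029, DUSP1 at 0.062, HBEGF at 0.064 and OLIG2 at 0.065. Nearest to ATF3 were DUSP1 at 0.042, NDRG1 at 0.052, IL6R at 0.063 and TFPI at 0.064. TFPI, a coagulation inhibitor, and DUSP1, a phosphatase of MAP kinases, were thus near to both, at log2 fold changes of 0.80 and 0.83. These genes were picked for their likeness, so their values are a description.

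Library totals ranged from 33040178 to 47777233 reads. Of all 3835 genes called, 52.3% were higher. That share was 33.3% with upper-quartile library factors, under which the median log2 fold change of all genes was -0.051, and 62.5% with DESeq2. Of 11 genes known in HEK293 cells, 8 had a mean of at least 1 CPM, and PAX8, NEFM and INA lay below it. Their summed level was 2082 to 2154 CPM in DMSO and 2228 to 2423 CPM in GSK-A1. Of 6 fibroblast genes, COL1A1 and COL3A1 passed 1 CPM and COL1A2 had 0 reads in every library. The fibroblast sum was 16.7 to 17.8 CPM in DMSO and 10.3 to 12.7 CPM in GSK-A1, and its part in the members' changes was not tested. All 6 blood genes lay below 1 CPM, with a sum of 0.659 to 0.694 CPM in DMSO and 0.469 to 1.07 CPM in GSK-A1.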

How the data were processed

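The values were raw counts of reads per gene, as deposited, from 6 libraries made with a stranded kit, per the labels. The submitters' processing notes name cutadapt 5.1, STAR 2.7.11b, featureCounts, Subread 2.1.1, DESeq2 1.38.0 and the build GRCh38.p13. The annotation release, strand setting and filters were not given in the sources used here. The labels do not say how the replicate cultures were separated, so p-values measure the spread between these samples.

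Genes were kept by filterByExpr (count 10, total 15), which left 16754. They were tested with edgeR 4.0.16 in R 4.3.3 by the quasi-likelihood F test (robust, legacy option off, TMM factors, all 6 libraries, treatment only), with Benjamini-Hochberg adjustment over the tested genes and a call at an adjusted p under 0.05. The SE was computed as the log2 coefficient over the root of its F statistic, and intervals cover 95%. The common biological coefficient of variation was 4.06%. The script was tested on simulated data.

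Alternatives were other library factors, no filter, a replicate block, DESeq2 1.42.0, limma-voom (limma 3.58.1), an adjusted p under 0.01, each library left out, other lengths, shares of raw counts, and the family without its most abundant member. Lengths (union of exons), gene positions and overlaps came from GENCODE 29, which held 58126 of the identifiers in the table and may not be the annotation used for counting. Shares and ratios were compared by exact permutation over libraries.

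The members and lists were chosen with earlier results of these data known. Named by rule were all members, up to 5 called genes per list and direction with the smallest p, JDP2, SRF and CCND1, and the 4 nearest profiles (mean of at least 1 CPM) of FOS, JUN and ATF3.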

Additional observations from a re-analysis of the deposited data

How the results depend on the processing

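Over 13 alternatives across all genes, FOS (log2 fold change 1.81 to 1.91), FOSL2, JUN, JUNB, JUND and ATF3 were called in each. FOSB lost its call in 6, among them upper-quartile factors (adjusted p 0.05) and DESeq2 (0.126), and FOSL1 in 4, with no adjusted p from DESeq2. The ATF2 log2 fold change turned to -0.012 with upper-quartile factors. Members called higher numbered 8 with all libraries, 6 to 8 with 1 left out, 7 with upper-quartile factors, 6 with DESeq2, 6 at an adjusted p under 0.01 and 8 with a replicate block. Libraries of the same number did not deviate together (r of 0.0109, 0.019 and 0.0323). With the block, the calls over all genes went from 2007 higher and 1828 lower to 2151 higher and 1976 lower. The regulators called numbered 9 with upper-quartile factors and 7 to 18 with 1 library left out.

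The difference in the FOS genes' share, 0.97 points, became 1.16 with the longest transcript's length, 1.17 as a share of raw counts and 2.32 without JUN. That of the JUN genes, -1.25 points, became -0.27 with raw counts, -1.93 with the longest transcript's length and -5.50 without JUN, and ran from -1.66 to -0.82 (without DMSO 1) with 1 library left out. That of the ATF genes, 0.27 points, became -0.90 with raw counts, 0.76 with the longest transcript's length and 3.18 without JUN, and ran from -0.09 (without DMSO 1) to 0.63 (without DMSO 3) with 1 library left out, at -0.01 without GSK-A1 1 and 0.51 without GSK-A1 3. The JUNB to JUND difference, -0.0068, ran from -0.038 to 0.029 with 1 left out, at 0.0042 without DMSO 1 and 0.003 without DMSO 3. The cause of these shifts was not tested. Read counts limit FOSL1 and FOSB most.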
